A study of Mus musculus with 6 samples.

Results

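The transcription factors Tbx1, Tbx4, Tbx5, Pitx1, Lhx2, Meox1, Meox2, Lbx1 and Tcf21, which mark where in the body a muscle arises, were followed in muscle-derived stem/progenitor cells (MDSPCs) of the mouse. They are 9 of the 21485 genes counted in every sample, were chosen by name, and were all present in each of the 6 count matrices. MDSPCs are the cells of digested skeletal muscle that attach last to collagen, and were obtained by 6 rounds of passing unattached cells to a new flask. Cultured MDSPCs of young mice (3 populations) and of old mice (3 populations), all in one serum-rich proliferation medium, were profiled with a droplet-based 3′ RNA assay of single cells. The population is the replicate of every test. The labels call the samples biological replicates of young or old MDSPCs and give no ages, sex, strain, muscle of origin or passage number. No genotype, transgene or drug is named for either group, and nothing says that the populations came from separate animals, so p-values measure only the spread between these samples.

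Skeletal muscle has several embryonic sources. Muscles of the trunk and limbs come from somites, where Meox1 and Meox2 act early, and Lbx1 is needed by the precursors that migrate from the somite into the limb. Muscles of the jaw, face and throat come instead from unsegmented head mesoderm, where Tbx1, Lhx2 and Tcf21 act upstream of the myogenic factors. Pitx1 and Tbx4 specify the hindlimb field and Tbx5 the forelimb field, mainly in the connective tissue that surrounds the muscle cells. Satellite cells of adult muscle are known to keep part of this regional identity.

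The matrices held 133974782 to 196481316 unique molecular identifiers (UMIs, tags that count each RNA molecule once) per sample, and 61673 of 62849 barcodes were kept as cells, 8674 to 12541 per sample, with medians of 13001 to 19951 UMIs. Any pair of libraries shared at most 0.37% of the barcodes of the smaller one. Levels are in CPM, with the sum of the UMIs of the shared genes in the kept cells as the total, and intervals are exact 95% Poisson intervals that cover counting error only. Of the 10 myogenic markers checked, Myod1 was found in every population, at 45.7 to 909 CPM, but the summed level of the list differed widely, from 310 CPM in old 1, 312 in young 3 and 390 in young 1 to 1767 in old 2, 2295 in young 2 and 3709 in old 3. Pax7, the defining factor of satellite cells, was at 0.03 CPM in young 3, and Myf5 was at 0.01 CPM in young 1. Immune, endothelial, glial and adipocyte markers summed to at most 8.20, 1.33, 2.58 and 0.80 CPM in any sample, and Ptprc and Adipoq stayed under 0.06 CPM. The connective tissue genes Gsn and Scx were at 149 CPM or more and 120 CPM or more in all 6 samples, whereas Lum and Tnmd, which define mature fibroblasts and tendon cells, did not exceed 0.021 CPM. Mural cell markers summed to 3.22 to 71.7 CPM. In such sums, fewer expressing cells and less RNA per cell cannot be told apart, so shares of cells are given beside the levels.

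The 300 bases around the start site are shown for Tbx1, Meox2 and Lhx2, the 3 factors with a large spread between populations whose start site in the RefSeq promoter table (GRCm38.p6) is also the start of the gene in GENCODE. The windows run from 250 bases before to 50 bases after the start, 5′ to 3′ on the strand of the gene. Capitals mark each E-box, CANNTG, the letters bound by the MyoD family, which read the same way on both strands.
Tbx1, chr16:18590622-18590921, minus strand: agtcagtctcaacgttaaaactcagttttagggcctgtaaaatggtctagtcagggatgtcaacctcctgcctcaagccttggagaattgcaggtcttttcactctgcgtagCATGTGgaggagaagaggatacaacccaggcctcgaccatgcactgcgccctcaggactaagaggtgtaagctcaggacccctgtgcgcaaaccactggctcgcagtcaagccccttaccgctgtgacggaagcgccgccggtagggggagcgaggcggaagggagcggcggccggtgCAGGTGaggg
Meox2, chr12:37108290-37108589, plus strand: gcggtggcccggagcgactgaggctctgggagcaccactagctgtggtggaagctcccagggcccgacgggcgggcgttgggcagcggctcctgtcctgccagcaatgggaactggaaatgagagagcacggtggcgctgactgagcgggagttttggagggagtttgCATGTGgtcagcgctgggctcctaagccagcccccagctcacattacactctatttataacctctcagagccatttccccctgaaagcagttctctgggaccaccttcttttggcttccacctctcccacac
Lhx2, chr2:38339031-38339330, plus strand: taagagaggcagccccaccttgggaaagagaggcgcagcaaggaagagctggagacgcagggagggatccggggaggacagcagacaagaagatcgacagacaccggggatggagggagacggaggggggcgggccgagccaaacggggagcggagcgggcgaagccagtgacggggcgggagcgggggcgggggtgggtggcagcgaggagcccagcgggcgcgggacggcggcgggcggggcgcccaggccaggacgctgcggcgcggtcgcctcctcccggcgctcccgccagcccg
The Tbx1 window held 2 E-boxes, the Meox2 window 1 and the Lhx2 window 0, against 72.3% of all 32851 windows of this length with at least 1. With both strands searched, TATAAA, the TATA box, had 1 match in the Meox2 window and 0 in the other 2, against 13.6% of all windows with a match. AGGTGTGA, the letters bound by T-box factors, and GGATTA, those bound by Pitx factors, had 0 matches on either strand in these 3 windows, against 1.28% and 7.06% of all windows with one. The CpG count was 16 for Tbx1, 12 for Meox2 and 34 for Lhx2, against a median of 7. The table also holds another start site for Tbx1 and for Lhx2, 1772 and 12027 bases from the gene start. The windows there held 0 and 1 E-boxes and 26 and 29 CpGs. The order of the genes by E-boxes thus depended on the start site taken, and that by CpG count did not. Promoters of Tbx4 and Tcf21 are in the table too, with start sites other than the GENCODE gene start, and those of Tbx5, Pitx1, Meox1 and Lbx1 are not.

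Tbx1, the head muscle regulator that is also a transcription factor of the heart and throat region, had the widest range of CPM of the 9 factors. Relative to the mean, Pitx1 and Meox2 varied more: the coefficient of variation over the 6 populations was 1.89 for Tbx1, 2.43 for Pitx1 and 2.28 for Meox2. The gene lies on chromosome 16 (GRCm38, 18580979-18590671, minus strand, protein-coding). In young 1, 2 and 3 it was counted 1050, 1 and 641 times, or 7.86, 0.005 and 3.39 CPM, and in old 1, 2 and 3 it was counted 1477, 20 and 16066 times, or 9.76, 0.113 and 88.0 CPM. Old 3 was the highest and young 2 and old 2 were near zero, so each group held a population almost without Tbx1 and the groups overlapped. The level in old 3 was 9.02-fold that of old 1 (8.55 to 9.52), the next in order, and 781-fold that of old 2 (506 to 1279). Against the single count of young 2 the ratio was 17010 (3053 to 671920). In order of level the populations ran young 2, old 2, young 3, young 1, old 1 and old 3. Young 1 and old 1, next to each other, differed by less than the SD within either group (3.94 CPM in the young and 48.2 CPM in the old).

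In old 3, Tbx1 was spread over the culture and was not held by a few cells. A UMI was found in 7376 of 12541 cells, or 58.8%, with 2 or more in 4024 cells and at most 15 in a cell. Were the same UMIs spread evenly in proportion to each cell's total, 67.8% of the cells would have had one. After each cell was thinned to 5000 UMIs, 32.5% of the cells of old 3 had a Tbx1 UMI (Wilson interval 31.7 to 33.3), against 3.87%, 0% and 1.56% in young 1, 2 and 3 and 4.58% and 0.059% in old 1 and 2. In young 2, 0 of 10650 thinned cells had one, and 1 of 10806 cells did at full depth. In the cells of old 3 with a Pitx1 UMI, described below, 1.64% (1 of 61 thinned cells) had a Tbx1 UMI, against 32.7% of the other cells. The mean thinned share was 1.81% ± 1.95 in the young and 12.4% ± 17.6 in the old populations (SD, n = 3 each; difference 10.6 points, two-sided exact permutation test p = 0.4, where 3 against 3 cannot go below 0.1). Shares were tested in this way for 7 factors, and their p-values are not adjusted over these tests. Classes of cells were compared on a scale of log2(CPM + 5), on which the fold of a low gene is smaller than the ratio of its CPM values. On that scale 0 genes were higher and 5 lower by 4-fold or more in the thinned cells of old 3 with a Tbx1 UMI: Cck (3.51 against 54.8 CPM), Fbln2 (7.14 against 50.6 CPM), Igfbp4, Rpl39l and Ccn2, each among the 20 genes that stood highest in the Pitx1 cells.

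The nearest genes on either side of Tbx1 with enough counts to be tested varied far less. Gnb1l, 14.3 kb away, ranged from 8.5 to 25.1 CPM, a 2.95-fold range, and Sept5, 29.8 kb away on the other side, from 0.80 to 4.03 CPM, a 5.04-fold range. Old 3 was the highest for each of the 2 neighbours as well. Over the genes of chromosome 16, the median of log2 levels in old 3 lay -0.01 from that of the other populations, so the chromosome as a whole was not shifted there.

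Lhx2, the LIM homeodomain factor that acts with Tbx1 in head mesoderm and in stem cells of several tissues, was low in every population but was found in all 6. The gene lies on chromosome 2 (38339281-38369733, plus strand) and overlaps 2 annotated antisense RNAs that are not in the shared gene list; whether the counting used the strand is not given in the sources used here. In young 1, 2 and 3 it was counted 106, 58 and 12 times, or 0.793, 0.30 and 0.064 CPM. In old 1, 2 and 3 it was counted 459, 403 and 90 times, or 3.03, 2.27 and 0.493 CPM. Old 1 and old 2 were above every young population, while old 3 lay between young 2 and young 1, so the groups overlapped. The mean was 0.386 ± 0.372 CPM in the young and 1.93 ± 1.30 CPM in the old (SD, n = 3 each). At 5000 UMIs per cell the share of cells with an Lhx2 UMI was 0.426%, 0.188% and 0.019% in young 1, 2 and 3, beside 1.47%, 1.07% and 0.230% in old 1, 2 and 3, a difference of 0.713 points between means (exact permutation p = 0.2).

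Tcf21, also called capsulin, acts beside Musculin in the precursors of jaw muscles and is a marker of fibroblast lineages in adult organs. It was counted 1 time, in young 3, and 0 times in the other 5 populations. In a population without a count, 0 of 8674 to 12541 cells allows a share of up to 0.024% to 0.035% of cells with a UMI, and a level of up to 0.016 to 0.022 CPM.

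Pitx1, the factor that sets hindlimb against forelimb identity, was counted 386 times in old 3 (2.11 CPM, 1.91 to 2.34). In the other populations it was counted 0, 0 and 1 time in young 1, 2 and 3 and 0 and 1 time in old 1 and 2. Old 3 was at least 94.1-fold higher than young 1, at least 136-fold higher than young 2 and at least 107-fold higher than old 1, taking 3 counts per library as the floor. Against the single count of young 3 the ratio was 399 (71.2 to 15805), and against that of old 2 it was 375 (67.0 to 14861). The gene lies on chromosome 13 (55825051-55836192, minus strand) and overlaps an antisense RNA and a long intergenic RNA outside the shared list. Its tested neighbours did not share the pattern: Catsper3, 16.1 kb away, lay between 0.112 and 0.214 CPM in the 6 populations, and H2afy, 237 kb away, was lowest in old 3, at 93.1 CPM.

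The Pitx1 UMIs of old 3 were concentrated in few cells. They fell in 197 of 12541 cells, or 1.57%, where an even spread would have given 3.02%, and 103 of these cells had 2 or more, with up to 6 in a cell. These 197 cells had a median of 37552 UMIs against 12926 in the other cells of old 3, and 5755 detected genes against 3400. Doublets, droplets with more than 1 cell, also have high totals: 86.8% of the Pitx1 cells were among the 1285 cells of old 3 with the most UMIs, a number set at 0.8% per 1000 barcodes, against 9.02% of the other cells. Without those cells 30 Pitx1 UMIs in 26 cells remained. The part of doublets and of cell size in the result was not tested.

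The cells with a Pitx1 UMI had a lower level of muscle genes than the other cells of old 3. The 10 myogenic markers summed to 533 against 3839 CPM. That 533 CPM was still above the 310, 312 and 390 CPM of all cells of old 1, young 3 and young 1. Levels in the Pitx1 cells are sums over the 197 cells, set against the sum over the other 12344 cells of old 3; they come from 1 sample, were looked at after the Pitx1 cells had been seen, and carry no test. Myod1, the myogenic determination factor, was at 138 CPM in the Pitx1 cells and 941 CPM in the others. Myog, the factor of differentiating myocytes, was at 104 against 969 CPM, Des, the muscle intermediate filament, at 60.9 against 444 CPM, and Pax7 at 4.59 against 34.7 CPM. Of the 10 myogenic markers, 9 were lower by 2-fold or more on the scale of log2(CPM + 5) and 0 higher, with Vcam1 the exception at 24.9 against 40.5 CPM. Of all 21484 genes other than Pitx1, with no filter on low counts, 3.17% were lower and 3.69% higher by that fold. These shares include genes near 0 in both classes, which cannot reach that fold on this scale, whereas all 10 myogenic markers had 30 or more UMIs. A Myod1 UMI was found in 43.1% of the Pitx1 cells and 96.7% of the others. Seen from the other side, 112 of the 520 cells without a Myod1 UMI had a Pitx1 UMI, or 21.5%, against 85 of the 12021 cells with one, or 0.707%. All 520 Myod1-free cells together had a median of 9680 UMIs. That median does not describe the 112 with a Pitx1 UMI, whose depth was not taken separately. Of all 197 Pitx1 cells, 171 were among the 1285 cells of old 3 with the most UMIs.

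Tbx1 and Lbx1, the most abundant of the 9 factors in that culture, were also lower in these cells than in the other cells of old 3. Tbx1 was at 12.2 CPM in the Pitx1 cells and 91.1 CPM in the others, and Lbx1 at 3.75 against 26.4 CPM. At 5000 UMIs per cell, 1 cell had a UMI of Tbx1 and of Pitx1, where 19.8 would be expected had the genes been independent, and 1 cell had Lbx1 and Pitx1, where 7 would be expected. Of the 14 Meox1 UMIs of old 3, 6 lay in the Pitx1 cells (0.834 against 0.046 CPM), a number too small to describe further. At full depth 19.3% of the Pitx1 cells had a Tbx1 UMI and 12.2% a Lbx1 UMI, against 59.4% and 29.3% of the other, shallower cells. The level in the Pitx1 cells was 0.134 of that in the others for Tbx1 and 0.142 for Lbx1, close to the 0.132 of Pax7, 0.131 of Chrna1, 0.137 of Des, 0.139 of Cdh15 and 0.147 of Myod1; Myf5 was at 0.068, Myog at 0.107, Mymk at 0.173 and Itga7 at 0.271. Whether the Tbx1 and Lbx1 UMIs of these cells were their own, or came with free RNA or a second cell in the droplet, was not tested.

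Part of the limb mesenchyme genes stood higher in the Pitx1 cells than in the other cells of old 3. Of the 18 genes of the limb list, with no filter on low counts, 5 were higher by 2-fold or more and 0 lower, beside the 3.69% and 3.17% of all genes. The list is richer in counted genes, as 14 of the 18 had 30 or more UMIs in old 3. A share over counted genes only was not taken. Of the 5 higher genes, Shox2 rested on the fewest UMIs, 45 in the Pitx1 cells and 26 in the others. Tbx3, a T-box factor of the limb margins, was at 17.5 against 0.707 CPM, Emx2, a homeobox factor of the limb girdle, at 10.6 against 0.313 CPM, and Shox2, a homeobox factor of the proximal limb, at 6.26 against 0.148 CPM. Prrx1, a general factor of limb mesenchyme, was at 149 against 61.6 CPM, while its relative Prrx2 was at 201 against 177 CPM. The Shox2 and Tbx3 levels of the Pitx1 cells were also reached by whole populations nearly without Pitx1. Shox2 was at 5.48 to 13.5 CPM in the populations other than old 3, and Tbx3 at 19.0 CPM in old 1. Emx2 and Prrx1 reached at most 5.54 CPM (old 2) and 85.5 CPM (old 1) in a whole population. Other genes of the limb list had lower CPM in the Pitx1 cells, among them Meis2 (29.1 against 52.3), Tbx15 (12.1 against 21.5) and Tbx2 (0.278 against 1.07). None was 2-fold lower on the scale of log2(CPM + 5). That scale cannot show such a decrease for a gene under 5 CPM in the other cells. Of the 10 fibro-adipogenic markers, 2 were higher by 2-fold or more, Dcn and Smoc2, and 1 lower, Col3a1. Dcn and Pdgfra, which define connective tissue fibroblasts, were at 27.4 against 0.427 CPM and 4.59 against 0.154 CPM, the latter under 2-fold on the scale of log2(CPM + 5). Each of the 2 genes had a UMI in a minority of the Pitx1 cells, 15.7%, against 0.170% and 0.194% of the other, shallower cells. Col3a1, another fibroblast gene, was lower in the Pitx1 cells, at 15.4 against 70.4 CPM. Markers of other cell types were scarce but not evenly spread. Of the immune markers, Ptprc had 5 of its 6 UMIs of old 3 and Csf1r 7 of its 10 in the Pitx1 cells, at 0.695 and 0.973 CPM, while Cd68 was at 0.973 against 1.30 CPM and Lyz2 at 0. Of the endothelial markers Kdr, Cdh5 and Pecam1 were at 0.417, 0.695 and 0.278 CPM and Emcn at 0, and of the glial ones S100b was at 0.417 CPM and Sox10 at 0. The part of such cells in the profile was not tested.

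Over the 21484 genes other than Pitx1, 184 were higher and 134 lower by 4-fold or more in the Pitx1 cells on the same scale. The genes that stood highest were Rpl39l (737 against 17.9 CPM), Fbln2, a matrix protein (596 against 13.8 CPM), Igfbp4 (954 against 25.2 CPM) and Cck (574 against 16.3 CPM), followed by matrix and matrix-related genes such as Ccn2, Timp3, Col1a2, Bgn and Col1a1. The genes that stood lowest included the tropomyosin gene Tpm2 (85.8 against 893 CPM), the fast myosin light chain Mylpf (749 against 5681 CPM) and the titin gene Ttn (75.6 against 587 CPM). The proliferation gene Top2a was at 115 against 167 CPM and Mki67 at 63.0 against 48.5 CPM. Requiring the Pitx1 UMI to remain after thinning to 5000 UMIs, an alternative added after the data were seen, left 61 cells, in which 9 of 10 myogenic markers were lower by 2-fold or more and 6 of 18 limb genes higher, beside 3.02% lower and 3.51% higher of all genes.

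**Figure D1:**
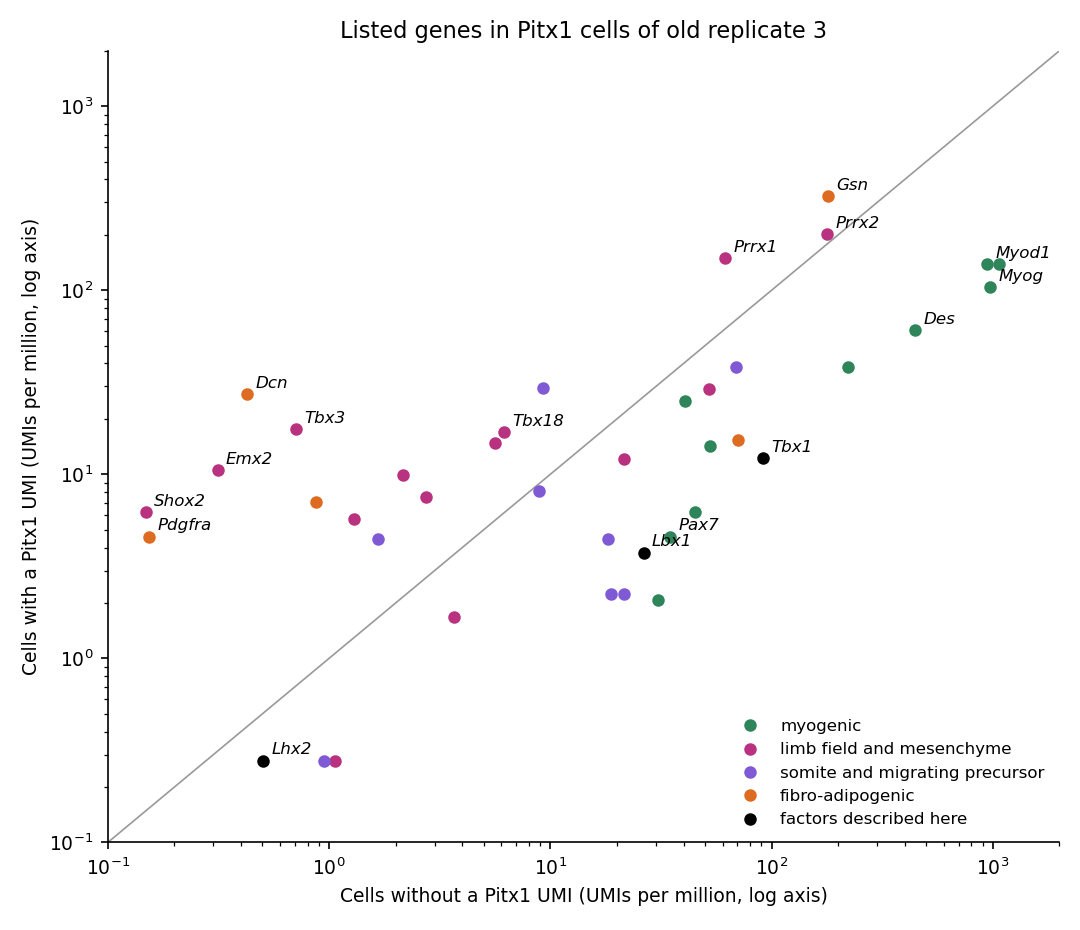
Levels of listed genes in the 197 cells of old 3 with a Pitx1 UMI (vertical axis) against the other 12344 cells (horizontal axis), in CPM on log axes, for genes of the 5 lists in the key with 30 or more UMIs in old 3 and at least 1 in the Pitx1 cells. Points above the diagonal are higher in the Pitx1 cells: Dcn, Tbx3, Emx2 and Shox2 lie above it, and Myod1, Myog, Des, Tbx1 and Lbx1 below it.

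Tbx4, the T-box factor that Pitx1 is known to activate in the hindlimb, was counted 1, 80 and 3 times in young 1, 2 and 3 and 7, 3 and 40 times in old 1, 2 and 3. The levels were 0.007, 0.414 and 0.016 CPM in the young populations, and those of old 1, 2 and 3 were 0.046, 0.017 and 0.219 CPM. Young 2 and old 3 were above the other 4 populations, and the level in young 2 was 1.89-fold that of old 3 (1.28 to 2.83). Young 2 had 0 Pitx1 UMIs, and the Pitx1 cells of old 3 held 0 of the 40 Tbx4 UMIs; with so few cells, 0.07 thinned cells with both would be expected had the genes been independent, so their joint presence could not be judged. Within young 2, Tbx4 was at 0.630 CPM in cells with a Myog UMI and 0.355 CPM in those without, a ratio of 1.78 (1.05 to 2.91). Across all 79 cells of young 2 with a Tbx4 UMI, 0 other genes were 4-fold higher or lower on the scale of log2(CPM + 5); by that scale the sarcomere genes Tcap (22.8 against 3.08 CPM), Myl4 (150.4 against 58.3 CPM) and Mybpc1 (9.95 against 1.68 CPM) stood highest. The values depended on which cells were taken: in the 23 cells that kept a Tbx4 UMI after thinning, 15 genes were higher and 4 lower by 4-fold or more, and Myl4 was at 570.0 CPM and Tcap at 66.0 CPM. Tbx2, the nearest tested gene, 44.5 kb away on chromosome 11, did not have this order and was highest in old 3, at 1.03 CPM.

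Tbx5, the forelimb factor, was counted 0 times in all 6 populations. Over the 61673 cells together, a count of 0 allows a share of up to 0.005% of cells with a UMI, and in single populations a level of up to 0.016 to 0.022 CPM. Tbx3, which lies 148 kb from Tbx5 on chromosome 5 and is likewise a limb gene, was detected in every population, at 1.37 to 19.0 CPM, with the highest level in old 1.

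Lbx1, the homeobox factor of migrating limb muscle precursors, had the smallest coefficient of variation of the detected factors, 0.297 over the 6 populations. The gene lies on chromosome 19 (45232684-45235812, minus strand). It was counted 3725, 5903 and 4027 times in young 1, 2 and 3, or 27.9, 30.5 and 21.3 CPM, and 3455, 7978 and 4657 times in old 1, 2 and 3, or 22.8, 44.9 and 25.5 CPM. The groups overlapped, with means of 26.6 ± 4.74 CPM in the young and 31.1 ± 12.1 CPM in the old (SD, n = 3 each), and the level in old 2 was 2.11-fold that in young 3 (2.03 to 2.19), the lowest. The 1.47-fold gap between old 2 and young 2 (1.42 to 1.52), the next in order, was larger than counting error. At 5000 UMIs per cell, the share of cells with a Lbx1 UMI had a mean of 11.9% ± 2.10 in the young and 13.9% ± 5.13 in the old (SD, n = 3 each), with old 2 the highest at 19.8% and young 3 the lowest at 9.46% (difference 2.03 points, exact permutation p = 0.8). In the Pitx1 cells of old 3 that share was 1.64%. At full depth 27.2% to 56.4% of the cells of a population had a Lbx1 UMI, beside the 28.1% to 57.9% that an even spread would give. Tbx1 and Lbx1 were found together in 477 thinned cells of old 3, against 454 if independent, and in 51 of young 1, against 42.6.

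Meox2, a homeobox factor of somites and limb muscle that is needed for normal limb muscle patterning, was almost restricted to young 3. It was counted 3, 4 and 471 times in young 1, 2 and 3 (0.022, 0.021 and 2.49 CPM) and 7, 3 and 9 times in old 1, 2 and 3 (0.046, 0.017 and 0.049 CPM). Young 3 was 50.6-fold above old 3, the next in order (26.4 to 111). In young 3 a UMI was found in 402 of 10780 cells, or 3.73%, against 4.26% for an even spread. The gene lies on chromosome 12 (37108540-37179534, plus strand). Its nearest tested neighbours Ispd, 419 kb away, and Dgkb, 638 kb away, were at 5.11 and 0.302 CPM in young 3 and at 5.71 to 18.8 and 0.12 to 0.341 CPM in the other 5. Young 3 was also the population with the highest Pax3 (51.6 CPM) and the lowest Pax7. The 132 thinned Meox2 cells had few genes apart from the rest of young 3: 0 were higher and 3 lower by 4-fold or more on the scale of log2(CPM + 5), Mylpf (5.08 against 58.5 CPM), Actc1 (0 against 21.7 CPM) and Acta1 (1.27 against 26.8 CPM), all of the contractile apparatus. Meox1, its relative in the early somite, was counted 1, 4 and 8 times in young 1, 2 and 3, beside 3, 5 and 14 times in old 1, 2 and 3, at most 0.077 CPM, and no population stood apart from all others beyond the counting intervals.

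**Figure D2:**
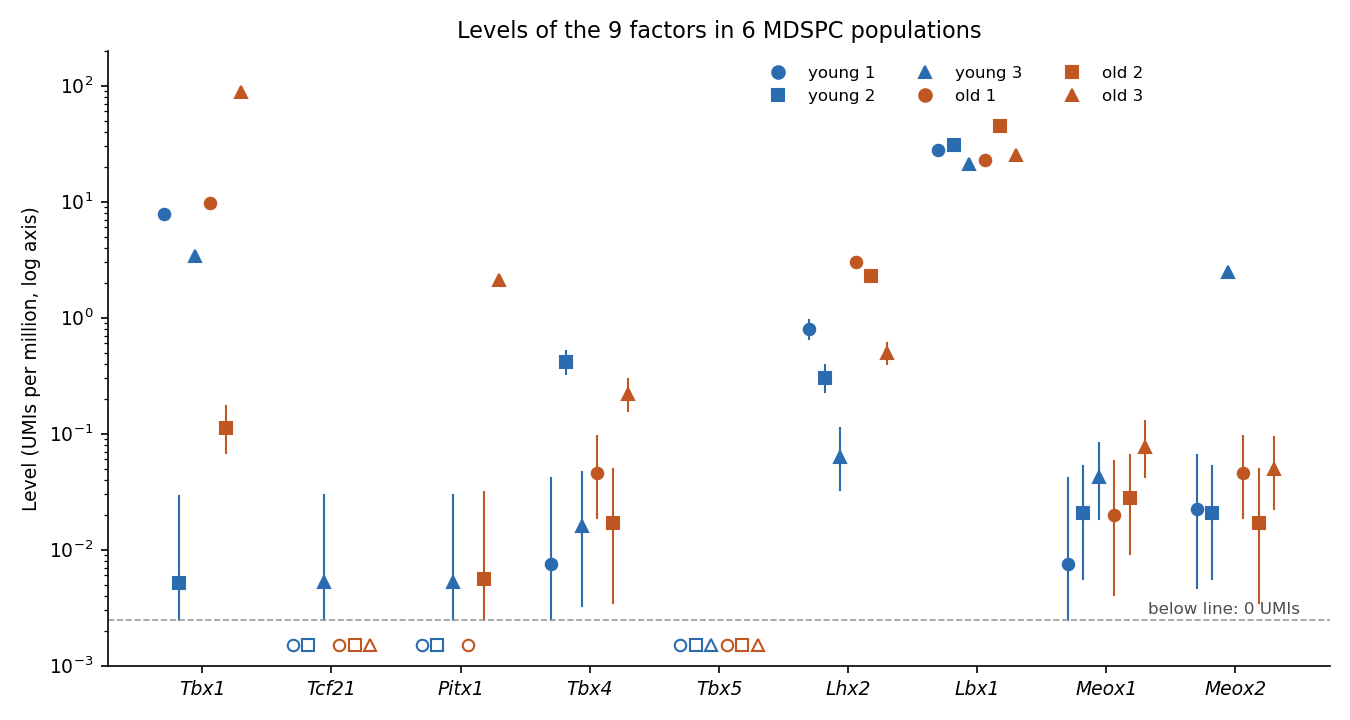
Level of each factor in each population, in CPM on a log axis, with young populations in blue and old in orange, the symbol giving the replicate. Bars are exact 95% Poisson intervals, cut off at the dashed line, and open symbols under that line mark 0 UMIs. Lbx1 keeps within 21.3 to 44.9, Tbx1 runs from 0.005 in young 2 to 88.0 in old 3, and Pitx1 and Meox2 each stand high in 1 population.

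The comparison of old with young populations, an analysis that the study names, was made on counts summed per sample with edgeR's quasi-likelihood test, Benjamini-Hochberg adjusted over all 14512 genes that passed the filter on low counts. Of the 9 factors, Tbx1, Lhx2 and Lbx1 passed that filter, and the other 6 were too low to be tested. None of the 3 was called. The log2 fold change of Lhx2, old over young, was 2.45 (SE 0.98, unadjusted p = 0.0483, adjusted p = 1.00), with both old 1 and old 2 above every young population. That of Tbx1 was 3.57 (SE 3.19, adjusted p = 1.00), with old 3 and old 1 above every young population and old 2 below young 3, and became -2.07 without old 3. That of Lbx1 was 0.10 (SE 0.37, adjusted p = 1.00) and changed sign without young 3 (-0.19) or old 2 (-0.23). The test called 1 gene in all, 0.00689% of those tested, with 512 at an unadjusted p under 0.05; it was Cyba, a subunit of the NADPH oxidase, which was higher in old. DESeq2 called 219 genes, 1.51% of those tested, and 0 of the 3 factors (Lhx2 adjusted p = 0.226). For 0 of the 3 factors did the young and old levels not overlap, against 5.93% of all genes tested.

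Other genes of the same programmes were read from lists of 6 head muscle, 18 limb and 14 somite or migrating-precursor genes. Of these 38 genes 28 were tested, 0 were called by edgeR, and 3 had an unadjusted p under 0.05: Tbx15, En1 and Zic1. Over all genes, 512 of the 14512 tested had an unadjusted p under 0.05 in that test. In 1 of the 28, or 3.57%, young and old levels did not overlap, under the 5.93% of all genes.

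Of the head muscle list, 3 of 6 genes were tested and the median log2 fold change was 0.12, beside -0.01 over all genes. Isl1, a factor of the second heart field and of part of the jaw muscle precursors, ranged from 0.066 CPM in old 3 to 7.51 CPM in old 2. Old 3, the highest in Tbx1, was thus the lowest in Isl1 and, at 0.0055 CPM, also the lowest in Msc, which encodes Musculin. Mesp1, a marker of early cardiac and head mesoderm, did not exceed 0.092 CPM.

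Of the limb list, 16 of 18 genes were tested, 8 with a fold change above 0, and the median was -0.09. Prrx2 was at 64.9 to 286 CPM and Meis2, a homeobox factor of the proximal limb, at 29.7 to 66.9 CPM in the 6 populations. Prrx1 was at 9.27, 78.1 and 18.6 CPM in young 1, 2 and 3 and 85.5, 9.79 and 65.0 CPM in old 1, 2 and 3. En1, a factor of the ventral limb and of part of the somite, was at 39.0, 46.3 and 24.6 CPM in young 1, 2 and 3 and 30.5, 12.3 and 6.01 CPM in old 1, 2 and 3, with overlap through old 1 (log2 fold change -1.54, SE 0.46, unadjusted p = 0.0166). Tbx15, a T-box factor of limb mesenchyme and fast muscle fibres, was the tested gene without overlap, chosen for that reason after its values were seen: 6.92, 8.88 and 11.7 CPM in young 1, 2 and 3 and 16.1, 22.4 and 21.1 CPM in old 1, 2 and 3 (log2 fold change 1.04, SE 0.22, unadjusted p = 0.00388, adjusted p = 1.00).

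Of the somite and migrating-precursor list, 9 of 14 genes were tested, 3 with a fold change above 0, and the median was -0.18. Met, the receptor by which precursors leave the somite, was at 27.8, 167 and 91.6 CPM in young 1, 2 and 3 and 45.7, 69.3 and 68.1 CPM in old 1, 2 and 3. Pax3, which acts upstream of Met and Lbx1 in the embryo, was at 12.6, 0.264 and 51.6 CPM in young 1, 2 and 3 and 26.5, 15.5 and 17.7 CPM in old 1, 2 and 3. Young 2 thus had the lowest Pax3 and the highest Met, and its Lbx1 was within the range of the others. Foxc2 was at 8.11 to 22.5 CPM and Cxcr4, the chemokine receptor of migrating precursors, at 0.773 to 38.7 CPM. Zic1, a factor of the dorsal somite, was at 0.921, 0.233 and 0.201 CPM in young 1, 2 and 3 and 3.30, 0.535 and 0.920 CPM in old 1, 2 and 3 (log2 fold change 1.70, SE 0.57, unadjusted p = 0.0262), with overlap. Tcf15, Uncx and Nkx3-2, which mark the forming somite and its sclerotome, did not exceed 0.04 CPM.

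**Figure D3:**
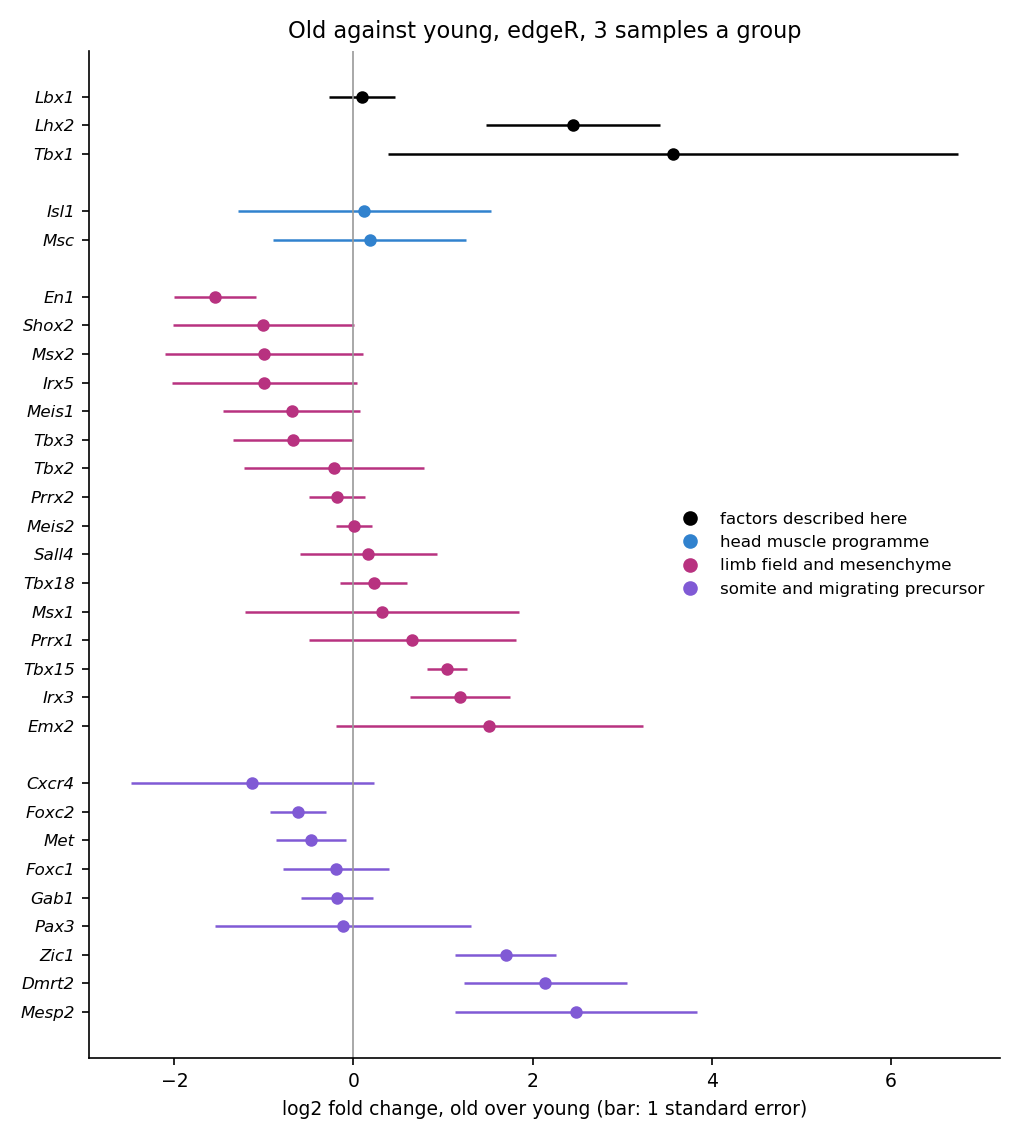
Log2 fold change of old over young for the 3 factors that were tested and for tested genes of the 3 lists, from edgeR with 3 samples a group; bars are 1 standard error and colours give the list. Tbx15 lies at 1.04, En1 at -1.54 and Tbx1, with the longest bar, at 3.57, and no gene shown was called.

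The 3 factors with enough counts were next compared between classes of cells of the same culture. Cells were divided by a UMI of Myog, which marks cells that leave the cycle to differentiate, or by a UMI of Mki67 or Top2a, which mark cells in S, G2 and M phase, at 5000 UMIs per cell. Each of the 6 populations gave 1 log2 ratio of CPM + 1, tested with a two-sided exact sign-flip permutation test whose smallest p is 0.031. The p-values are not adjusted over these 6 tests, and that smallest p would not pass 0.05 if they were.

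Lhx2 was higher in cycling cells in 6 of 6 populations, by a mean log2 ratio of 0.57 ± 0.40 (SD, n = 6; exact permutation p = 0.031, the smallest possible). Cells with a Mki67 or Top2a UMI had 1.30, 0.506 and 0.087 CPM of Lhx2 in young 1, 2 and 3, and cells with neither had 0.459, 0.135 and 0.015 CPM. In old 1, 2 and 3 the values were 3.48, 4.60 and 0.742 CPM against 2.08, 1.28 and 0.272 CPM. The unshrunken ratio was 2.83 (1.87 to 4.35) in young 1, 3.74 (2.04 to 7.24) in young 2, 1.67 (1.33 to 2.12) in old 1, 3.58 (2.92 to 4.39) in old 2 and 2.72 (1.71 to 4.45) in old 3, while in young 3 it rested on 12 UMIs and its interval held 1. The share of cells in the cycling class did not order the populations as Lhx2 did: it was 36.4%, 37.1% and 60.8% in young 1, 2 and 3, beside 64.7%, 25.4% and 41.2% in old 1, 2 and 3, with old 2 lowest in cycling cells and second in Lhx2.

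Cells with a Lhx2 UMI were then compared with the other cells of their culture, as a description of 1 sample each. In old 2, the 91 thinned cells with a Lhx2 UMI had 0 genes higher and 14 lower by 4-fold or more on the scale of log2(CPM + 5). The genes that stood highest included Ccne2, the cyclin of the G1 to S transition (55.5 against 10.2 CPM), the histone gene Hist1h1b (159 against 36.0 CPM) and the replication licensing gene Cdc6 (33.7 against 6.82 CPM). Lower in the Lhx2 cells were Myog (26.4 against 179 CPM) and Acta1 (5.18 against 273 CPM). The share of these cells with a Myog UMI at full depth differed less, 16.5% against 22.8%. Among all 360 cells with a Lhx2 UMI at full depth 0 genes were higher and 1 lower by that fold, and Ccne2 was at 46.8 against 9.01 CPM and Hist1h1b at 133 against 32.7 CPM, while Acta1 was at 66.9 against 282 CPM. In old 1, Ccne2 (153 against 66.2 CPM) and Ccne1 (74.0 against 32.2 CPM) were among the 20 highest genes of the 146 Lhx2 cells. Dividing the cells by a Ccne2 UMI, a class added after these genes were seen and given without a test, Lhx2 was higher in the cells with one in 6 of 6 populations: 3.16 against 0.615 CPM in young 1, 0.675 against 0.251 CPM in young 2, 0.226 against 0.042 CPM in young 3, 6.15 against 2.15 CPM in old 1, 10.00 against 1.86 CPM in old 2 and 1.64 against 0.333 CPM in old 3. The mean log2 ratio was 1.02 ± 0.63 (SD, n = 6). This mean includes old 1 and old 2, in whose Lhx2 cells Ccne2 was picked, so the values of old 1 and old 2 restate that choice. Lbx1 was lower in the cells with a Ccne2 UMI in 6 of 6 populations, by a mean log2 ratio of -0.21 ± 0.09.

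Tbx1 and Lbx1 did not pass the test by Myog or by Mki67 or Top2a, and Lhx2 did not by Myog. In cycling cells the mean log2 ratio was 0.08 ± 0.10 for Tbx1 (exact permutation p = 0.1875) and 0.00 ± 0.09 for Lbx1 (exact permutation p = 0.96875). In cells with a Myog UMI it was 0.10 ± 0.18 for Tbx1 (exact permutation p = 0.25), -0.12 ± 0.36 for Lhx2 (exact permutation p = 0.46875) and 0.11 ± 0.27 for Lbx1 (exact permutation p = 0.40625). In old 3, where 45.9% of the cells had a Myog UMI and Tbx1 had the most counts, Tbx1 was at 81.5 CPM in these cells and 91.4 CPM in the others, a ratio of 0.892 (0.864 to 0.920). In the same culture Pitx1 was at 0.750 against 3.24 CPM, a ratio of 0.231 (0.174 to 0.303), and in young 3 Meox2 was at 2.03 against 2.49 CPM, a ratio of 0.813 (0.485 to 1.29). The interval for Pitx1 treats each UMI as independent. Its UMIs were concentrated in few cells, so that interval is too narrow.

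**Figure D4:**
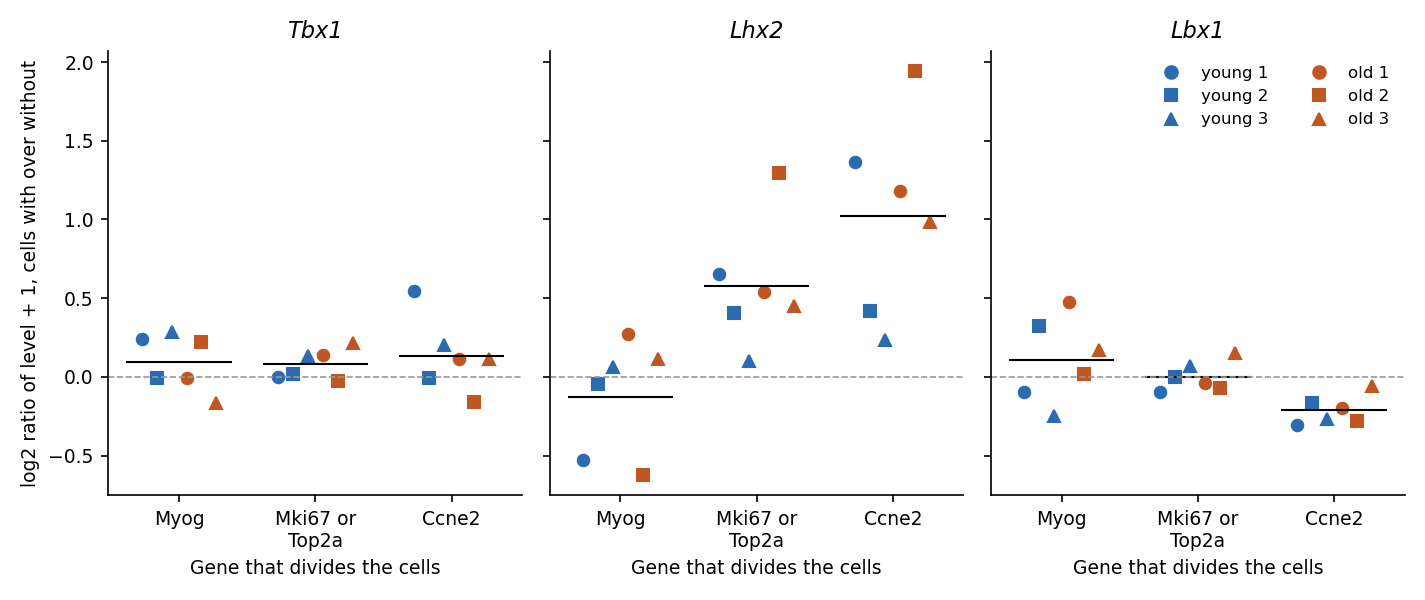
Log2 ratio of the level (CPM + 1) of Tbx1, Lhx2 and Lbx1 between cells with and without a UMI of Myog, of Mki67 or Top2a, or of Ccne2, in each population (symbols as in the plot of levels by population); black lines are means over the 6 populations and the dashed line marks no difference. All 6 points for Lhx2 lie above it under Mki67 or Top2a (mean 0.57) and under Ccne2 (mean 1.02).

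The genes whose levels followed each tested factor most closely over the 6 populations were taken as the 3 with the highest Pearson correlation of log2(CPM + 0.5), TMM-scaled, among 14511 genes; with 6 points and so many genes these values are a description. For Tbx1 they were 4930579G24Rik (r = 0.98), Dynap (r = 0.98) and Ntf5 (r = 0.97), of which Dynap ran from 7.33 CPM in old 2 and 10.4 CPM in young 2 to 200.3 CPM in old 3. The span of the others was far smaller. 4930579G24Rik ran from 6.96 CPM in old 2 to 11.5 CPM in old 3, and Ntf5 from 0.145 CPM in young 2 to 0.684 CPM in old 3. For Lhx2 they were Slc2a9, Cdr2l and Stpg2 (r = 0.98, 0.98 and 0.97), and for Lbx1 Cdk5, Ggact and Ech1 (r = 0.99, 0.98 and 0.98). Within old 3, the thinned cells with a Tbx1 UMI had 232 CPM of Dynap against 185 in the cells without.

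The chromosomes that carry the factors were level across populations with the exception of old 2. There the median log2 level of all tested genes stood higher by 0.19 on chromosome 5, 0.25 on chromosome 11 and 0.24 on chromosome 13, which carry Tbx5, Tbx4 with Meox1, and Pitx1. In every other case the median lay between -0.06 and 0.04. Old 2 had 0, 3, 5 and 1 UMIs of Tbx5, Tbx4, Meox1 and Pitx1, so no result above rests on a high value in it for these genes. The factors on the unshifted chromosomes 16, 2, 19 and 12, namely Tbx1, Lhx2, Lbx1 and Meox2, were the ones with the most counts.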

How the data were processed

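The 3′ libraries of 6 MDSPC populations (10x Genomics) were counted by the authors with Cell Ranger, version 7.0.0 for young 1 and old 1 and 7.2.0 for the others, per the file headers; the submitters' processing notes name mm10, Cell Ranger 7.2.0 and Seurat. The authors deposited raw UMI counts, whole numbers with no normalization; the annotation release, intron setting and cell-calling rule are not given in the sources used here. The 2 versions used lists of 21849 and 32285 features, and the 21485 shared Ensembl identifiers, with 98.5% to 99.9% of the UMIs, were analysed. Cells had at least 1000 UMIs, 500 genes and under 15% mitochondrial UMIs. No doublet caller was run and doublets were not removed.

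Counts summed per sample were tested with edgeR 4.0.16 (TMM, filterByExpr, quasi-likelihood, terms for gene list and group, adjusted p under 0.05) after a check on simulated data; DESeq2 1.42.0 was an alternative. Shares used cells thinned to 5000 UMIs, leaving out 533 young and 815 old cells. The named genes are the 9 factors, up to 4 genes of highest mean CPM per list, neighbours, the 3 most correlated genes and called genes; Tbx15, Zic1, the genes named at near 0, the markers and the genes of the cell classes were named after their values were seen. The factors and lists were chosen with earlier results of these data known. A few genes of the lists are not reported here.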

Additional observations from a re-analysis of the deposited data

How the results depend on the processing

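The count of 1 gene called by edgeR, higher in old, became 219 with DESeq2 (180 higher and 39 lower), and 0 without the gene list term or with the 4 samples of the longer list. Leaving out 1 sample gave 0 to 3 genes: 0 without young 1 or old 1, and 3 without young 3. Without young 1 or old 1, the other is the only sample of the shorter list and is absorbed by the gene list term. Those 2 fits therefore repeat the one with the 4 samples of the longer list and are not separate checks. None of the tested factors was called under any of these settings. No label says whether the replicate numbers pair young with old samples. The deviations of same-numbered samples correlated at 0.39, 0.28 and -0.11, and those of differently numbered samples at -0.47 to 0.32. Young 1 and old 1 also shared the Cell Ranger version and the gene list. Whether the numbers pair the samples could not be judged from these values. With the replicate number as a block, 1 gene was called, and the log2 fold changes were 2.5 for Lhx2 (unadjusted p = 0.0162), 2.85 for Tbx1 and 0.09 for Lbx1. The unadjusted edgeR p of Lhx2 was 0.0483 in the main fit, 0.1096 without the gene list term and 0.0824 with the longer list only. On leaving out 1 sample that p ran from 0.0467 without old 3 to 0.162 without old 2. DESeq2 gave Lhx2 an unadjusted p of 0.00668 (adjusted p = 0.226). Leaving out 1 sample gave log2 fold changes of 1.54 to 3.09 for Lhx2, -2.07 to 5.20 for Tbx1 and -0.23 to 0.48 for Lbx1; Tbx1 reversed without old 3 (-2.07) and Lbx1 without young 3 (-0.19) or old 2 (-0.23).

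Differences in shares of cells, in points, reversed for Tbx4 without young 2 (0.046) or old 2 (0.0017), for Meox1 at 2000 UMIs (-0.00024), for Meox2 without young 3 (0.019) and for Lbx1 without old 2 (-0.915). The range on leaving out 1 sample was 0.510 to 16.7 for Tbx1, 0.438 to 1.06 for Lhx2, 0 to 0.250 for Pitx1, 0.011 to 0.026 for Meox1, -0.602 to 0.019 for Meox2, -0.062 to 0.046 for Tbx4 and -0.915 to 3.75 for Lbx1.

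Lhx2 in cycling cells kept its direction without any 1 sample (0.43 to 0.67), where 5 samples cannot go below an exact permutation p of 0.0625. For Lbx1 in cycling cells the log2 ratio reversed without thinning (-0.0338), without young 3 (-0.0125) or old 3 (-0.0282), and with cells divided by Ccne2 (-0.213, lower in 6 of 6 samples, a class chosen after seeing the data), and ran from -0.0282 to 0.0215 on leaving out 1 sample. With cells divided by Myod1 in place of Myog, Lhx2 reversed to 0.0734 and Lbx1 came to 0.240 (exact permutation p = 0.031). The cause of these changes was not tested. Levels of a few UMIs per sample (Tbx4, Meox1, Tcf21) are limited by depth.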
